A study of Mus musculus with 4 samples.

Results

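CD300a deficient (KO) and wild-type (WT) mice raised under specific pathogen-free (SPF) housing were compared by the gene expression of their colonic dendritic cells, sorted from the lamina propria that lies under the gut epithelium. The comparison rests on 2 of the 4 arrays of the study, those titled as naïve WT and naïve KO. Per the labels, both groups are female C57BL/6J mice, 5 in each condition, from which dendritic cells were freshly sorted by flow cytometry. The labels do not spell out whether the 5 mice were pooled on each array, which cell fraction the sort gates kept, or how the deletion was made. The remaining 2 arrays hold WT and KO cells from germ-free (GF) mice, which are labelled male; their values are given beside the SPF values in places, and the SPF and GF pairs share no array. With 1 array a side there is no replicate and no test. A difference between the arrays is therefore a description of 2 hybridisations, and differences between mice, sorts and RNA preparations cannot be told apart from genotype.

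CD300a is a cell surface receptor of myeloid cells that carries inhibitory motifs in its cytoplasmic tail and binds phosphatidylserine and phosphatidylethanolamine on dying cells. Its signals recruit phosphatases that dampen activating receptors. In the gut, dendritic cells sample microbes and dying epithelium, and they either mature and migrate to lymph nodes to prime T cells or support tolerance through regulatory T cells.

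Levels are log2 of the scanner's processed signal minus the array's 75th percentile of that value, so a difference of 1 is 2-fold and a positive difference is higher on the KO-labelled array. A gene counted as measured when the scanner software called its probe well above background on 1 or both of these arrays, which held for 14877 of 20637 named genes, 13343 of them on both. On the WT array 14423 genes and on the KO-labelled array 13797 genes were above background. Across measured genes the levels of both arrays correlated with r = 0.96, a value across genes, which are not replicates. The median difference of all measured genes was -0.07, and the central 90% of genes lay between -1.17 and 1.07. Both arrays were on slide 1 with scan 1, so this comparison lies within 1 slide and 1 scan.

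The targeted gene differed by 0.03. The only probe of Cd300a (NM_170758) read 7.88 on the WT array and 7.91 on the KO-labelled array. No source used here gives the position of this probe relative to the deletion, so its signal cannot check the genotype; the array is therefore named by its label. Xist, the RNA that coats the silenced X chromosome of females, read 4.87 and 5.45, while the Y-linked Ddx3y, Uty and Kdm5d were not well above background on either array. Exceptions were Eif2s3y, which passed on the KO-labelled array alone at -2.56 and was at least 2.99-fold higher there, and the Y-linked Sry, which read -1.23 on the WT array and -1.41 on the KO-labelled array.

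Dendritic cell markers were present on both arrays. Itgax, which encodes CD11c, read 4.32 on the WT array and 4.44 on the KO-labelled array, and H2-Ab1, a chain of MHC class II, read 8.41 and 8.47. Flt3, the receptor of the growth factor on which dendritic cells depend, read 0.26 and 0.59, with its 2 probes at -0.17 and 0.33. Zbtb46, a transcription factor of conventional dendritic cells, read -1.51 and -0.06, a difference of 1.45 with a second probe at 0.92. Of 11 conventional dendritic cell markers, 9 were higher on the KO-labelled array and 2 of these at least 2-fold, where 5.61% of measured genes were (median 0.32). In bulk samples fewer cells of a type and less RNA per cell cannot be told apart. Macrophage and monocyte markers were also bright, C1qa at 6.45 and 6.25 and Cx3cr1 at 6.62 and 6.15, and their median of 22 members was -0.25. On the KO-labelled array 3 of them exceeded WT by 2-fold or more, Timd4 (-0.94 and 0.83), Cd163 (-2.33 and -1.12) and Cd14 (4.69 and 5.87), and 0 were lower by as much. The difference of the dim Cd163 shrank to 0.53 with the choice of processing.

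Of the measured genes, 835 (5.61%) were at least 2-fold higher and 985 (6.62%) at least 2-fold lower on the KO-labelled array. In any amount 6570 genes were higher and 8307 lower, so a gene list is to be read against a background in which lower values were the more frequent. Restricted to the 13343 genes that passed background on both arrays, the calls were 481 higher and 373 lower. Counts of list members above background on both arrays are to be read beside these. The split was 201 higher against 91 lower in the brighter 50% of genes. Background correction by normexp left 176 higher and 92 lower. Other scalings of all 14877 genes gave 865 higher and 937 lower (quantile), 901 and 905 (cyclic loess) and 724 and 1141 (the deposited table), so which direction had more calls depended on these choices. The share of calls grew as the signal dimmed. In the quartile of genes with the lowest mean level, 485 were higher and 723 lower, with an SD of differences across genes of 1.30. In the quartile with the highest level, 106 were higher and 27 lower, and the SD was 0.43. Olfactory and vomeronasal receptor genes, which gut dendritic cells are not known to use, lay mostly among the dim probes. Of 1327 such genes 279 passed the background filter, 243 on the WT and 175 on the KO-labelled array, and 38 of them were higher by 2-fold or more and 63 lower. Of the 139 above background on both arrays, 7 were higher and 4 lower by 2-fold. The other calls belong to genes that passed the filter only through the array where they were high. More of these genes passed on the WT array, and the reason for that was not tested.

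**Figure D1:**
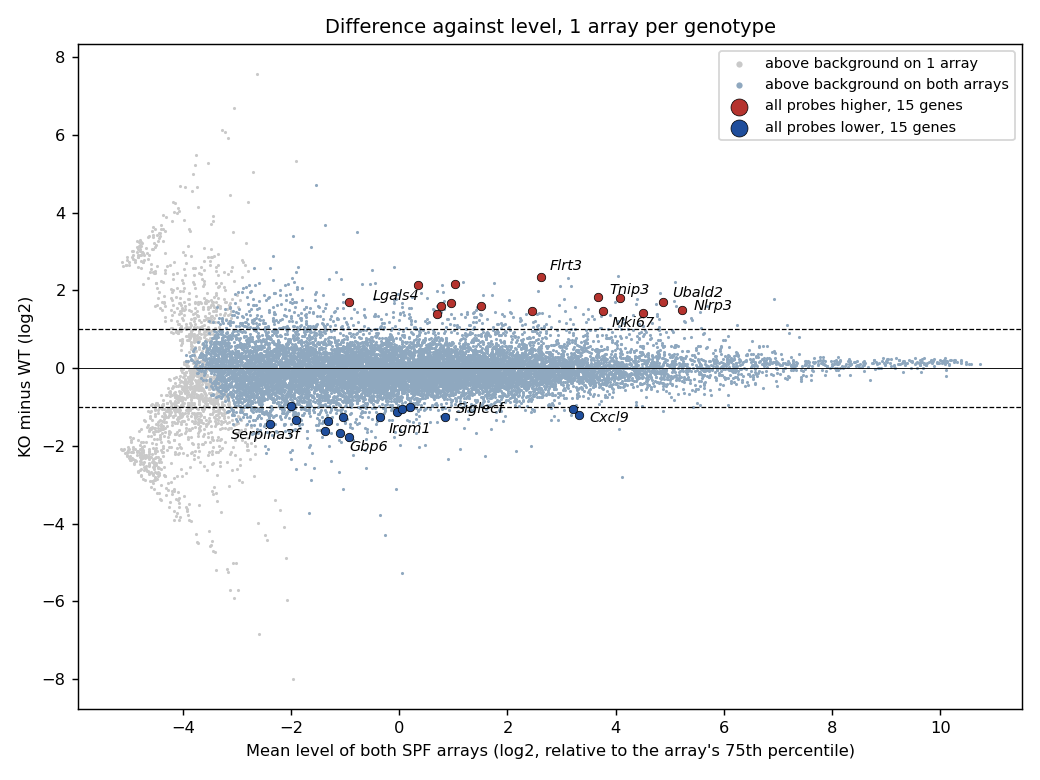
Each point is a measured gene, with its mean level on both SPF arrays (log2) on the x axis and KO minus WT (log2) on the y axis. Dashed lines mark 2-fold. Large points are the first 15 genes in each direction when genes whose probes all shared it are ranked by their smallest probe difference. The cloud widens towards low levels, where the 485 higher and 723 lower calls of the dimmest quartile lie, and the 15 genes marked as higher extend to brighter levels than the 15 marked as lower.

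For probes above background on both arrays, technical error within an array was smaller than the spread of differences across probes. Calls on genes above background on 1 array only are not covered by the values that follow. On this design 271 probes above background on both arrays were printed 10 times, and the SD over the spots of a probe had a median of 0.10 on each array. The SD of the difference between arrays that these spots give had a median of 0.15 and grew from 0.10 in the brightest of 3 equal groups of probes to 0.29 in the dimmest. Across the 271 probes KO minus WT had an SD of 0.58, and 26 probes were past 2-fold. Spots measure the scanner and the hybridisation only. They carry nothing about the spread between mice.

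Several genes of immune function were among those with 10 spots, each given as mean ± SD over spots. Il10, an anti-inflammatory cytokine of gut myeloid cells, read 4.08 ± 0.07 on the WT array and 5.46 ± 0.08 on the KO-labelled array. Ptgs2, which encodes the prostaglandin-forming enzyme COX-2, read 4.22 ± 0.08 and 5.94 ± 0.08. Nr4a3, an activation-induced nuclear receptor, read 1.16 ± 0.04 and 2.90 ± 0.05. All 3 were higher on the KO-labelled array by many times the spread between spots. Il1b, the fever-inducing cytokine of activated myeloid cells, read 6.76 ± 0.08 and 7.65 ± 0.05, and Tnf read 1.90 ± 0.10 and 2.52 ± 0.06, higher by less than 2-fold. Tgfb3, a transforming growth factor, read 0.08 ± 0.13 and 1.59 ± 0.08. The plasma cell gene Mzb1 read -0.16 ± 0.12 and 1.79 ± 0.06. These 2 were higher on the KO-labelled array as well. Lower there were Csf1, the macrophage growth factor (0.79 ± 0.08 and -0.78 ± 0.11), Igtp, an interferon-inducible GTPase (0.97 ± 0.10 and -0.35 ± 0.07), and Calhm6 (0.19 ± 0.10 and -1.38 ± 0.12). Smaller differences in that direction were read for the monocyte chemokine Ccl2 (3.01 ± 0.06 and 2.27 ± 0.06), the signalling adaptor Myd88 (1.39 ± 0.06 and 0.51 ± 0.07) and the peptide transporter Tap1 (-0.50 ± 0.13 and -1.24 ± 0.11). The class I heavy chain H2-K1 read 7.69 ± 0.06 and 7.6 ± 0.06, and its spots overlapped between the arrays within 1 SD of each.

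**Figure D2:**
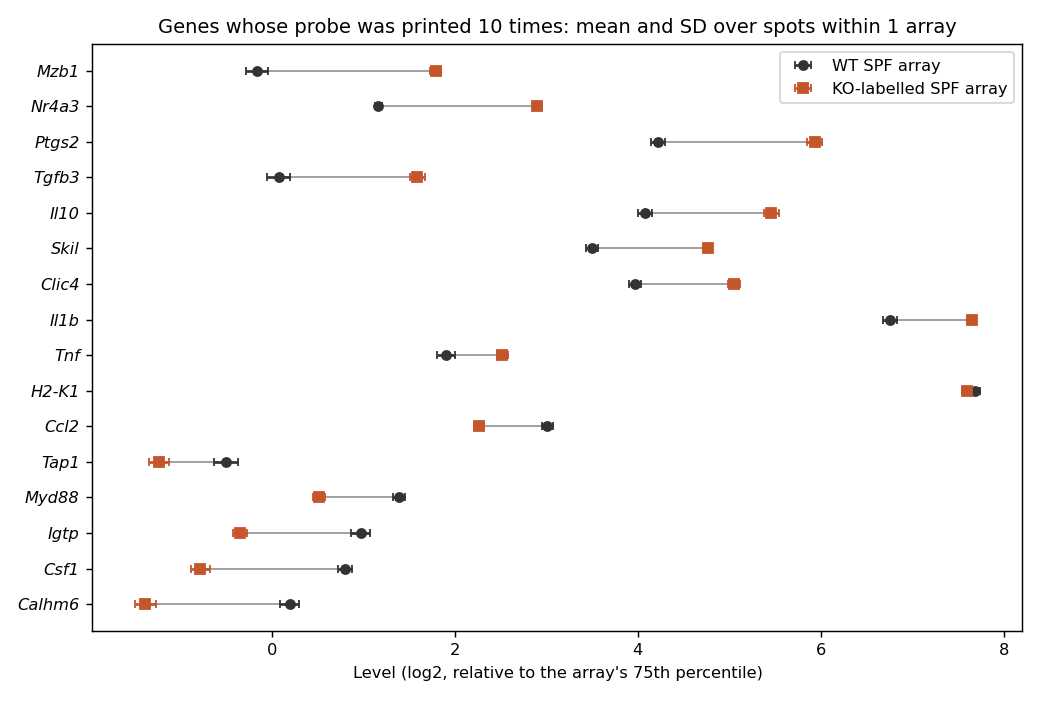
Levels (log2, relative to the array's 75th percentile) of 16 genes whose probe was printed 10 times; circles are the WT and squares the KO-labelled SPF array, and bars are the SD over spots within 1 array. For 15 genes the gap between arrays is several times the bars, and for H2-K1 (7.69 and 7.6) the symbols overlap.

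A second probe of the same gene gives another view of each difference. Of 3347 genes with several probes above background on both arrays, the second-brightest probe had the same direction as the brightest for 68.2%, and the differences correlated across genes with r = 0.48. Among 147 genes past 2-fold on the brightest probe, the second had the same direction for 118 (80.3%) and was itself past 2-fold for 58 (39.5%), and for 2 genes it was past 2-fold the opposite way. Genes higher on the KO-labelled array were matched in direction for 75 of 90, and genes lower for 43 of 57. The correlation was r = 0.27 in the dimmest quartile of second probes and r = 0.75 in the brightest. All probes were past 2-fold higher for 40 genes, 1.2% of the 3347, and past 2-fold lower for 13 genes, 0.388%.

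**Figure D3:**
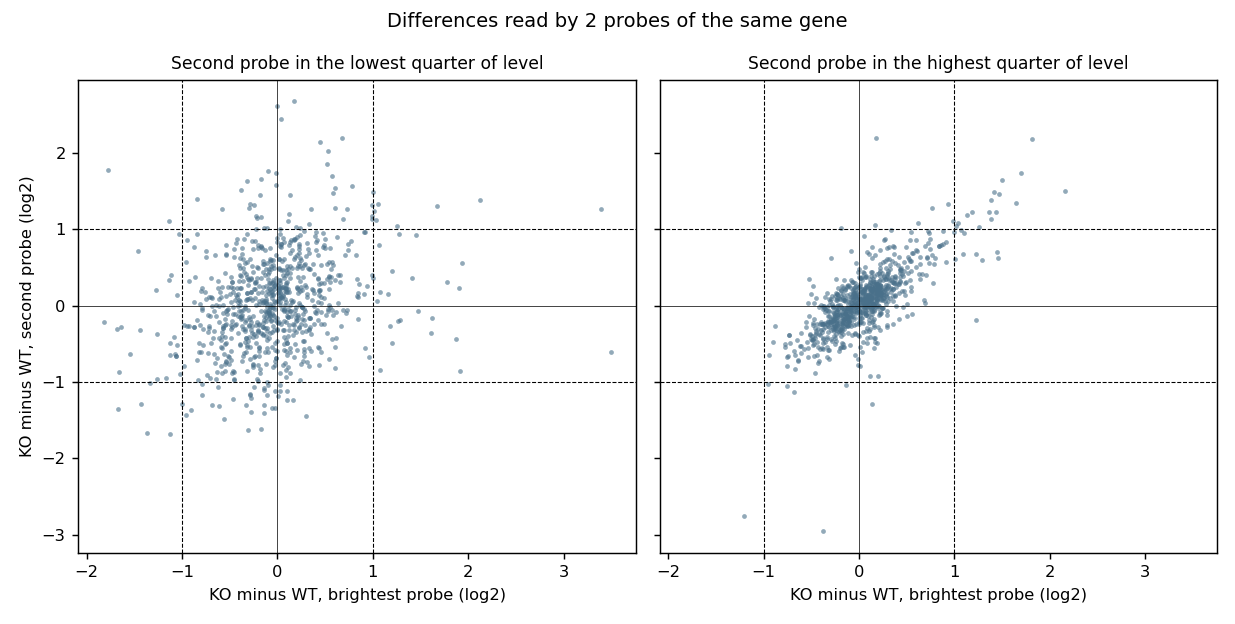
Each point is a gene with 2 probes above background on both SPF arrays, with KO minus WT (log2) of its brightest probe on the x axis and of its second probe on the y axis; dashed lines mark 2-fold. In the left panel, the dimmest quartile of second probes, the points form a round cloud (r = 0.27), and in the right panel, the brightest quartile, they lie along a line (r = 0.75).

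Genes with several probes above background on both arrays, all of them higher, were ranked by the smallest difference among those probes. The first 15 had varied roles. Flrt3, a leucine-rich adhesion protein, read 1.45 on the WT array and 3.79 on the KO-labelled array, with 3 probes between 2.30 and 2.35. Tnip3, a partner of the NF-kappaB inhibitor A20, read 2.77 and 4.59, with probes at 1.82 and 2.23. Tnfaip2, a gene induced by tumour necrosis factor, read 3.17 and 4.98, with probes at 1.81 and 2.18. Nlrp3, the sensor of the inflammasome that releases interleukin-1, read 4.48 and 5.98, with probes at 1.5 and 1.65. All 4 were well above background on both arrays and higher on the KO-labelled one with every probe, as the choice of genes required. Values in brackets here are KO minus WT of the gene's probes. Further genes of this set were Rabgef1 (1.62 and 1.67), an endosomal exchange factor, Ubald2 (1.69 and 1.73) and Dennd4a (1.47 and 2.0). Hilpda (1.42 and 1.49), a lipid droplet protein induced by low oxygen, was another. Mki67, the proliferation marker Ki-67, read 3.03 and 4.50, with both probes at 1.47. Lgals4, a galectin of gut epithelium, read 0.01 and 1.40, with 3 probes from 1.39 to 1.58. Ednrb (1.60 and 2.02), the endothelin receptor B, Efnb2 (1.69 and 2.33), an ephrin ligand, Apold1 (1.5 and 2.16), Cacna1s (1.59 and 1.86), a calcium channel subunit, and Mpp7 (1.38 and 2.13) completed the 15. With the choice of processing Efnb2 shrank to 0.93 and Lgals4 to 0.98, and the others of the 15 stayed past 2-fold. Cflar, an inhibitor of death receptor signalling, had 3 probes between 0.99 and 1.42, and Vegfa, the vascular growth factor, had 2 at 1.22 and 1.44.

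Genes with all probes lower were ranked in the same way, and the first 15 had varied roles as well. Gbp6, a guanylate-binding protein, read -0.25 on the WT array and -1.93 on the KO-labelled array, with probes at -1.68 and -1.36. Irgm1, an immunity-related GTPase, read 0.27 and -0.99, with probes at -1.93 and -1.26. Cxcl9, a chemokine induced by interferon gamma that attracts T cells, read 3.92 and 2.72, with probes at -2.75 and -1.20. For Cxcl9 the probes share the direction but differ by more than 2-fold in size. Serpina3f, a protease inhibitor, read -0.55 and -2.18, with probes at -1.63 and -1.49. Lower with both probes were also Siglecf (1.48 and 0.22; probes -1.26 and -0.96), an inhibitory sialic acid receptor and eosinophil marker, and Sirpb1a (3.74 and 2.69; probes -1.05 and -1.03), a signal regulatory receptor. For the genes that follow, values in brackets are KO minus WT of the gene's probes. Treml2 (-1.43 and -1.29), a receptor of the TREM family, Cpe (-1.77 and -1.20), carboxypeptidase E, and Enho (-1.06 and -1.05) were lower. Neb (-1.67 and -1.37), Lysmd1 (-1.39 and -1.12), Ddx31 (-1.27 and -1.10) and Rflnb (-1.28 and -1.0) were lower too. Sat2 (-1.43 and -0.96) and Klra8 (-1.33 and -1.01), a natural killer cell receptor with close paralogs, completed the 15. With the choice of processing Cxcl9, Cpe, Sirpb1a and Siglecf stayed past 2-fold. The others were below it in some setting, at as little as -0.34 for Sat2, -0.55 for Treml2 and -0.58 for Klra8. Gbp6 and Irgm1 shrank to -0.89 and -0.92.

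In the brightest quartile of genes the 8 highest differences ran from that of Ramp3 to that of Clec4d. Ramp3, a subunit that sets the ligand of calcitonin-type receptors, read 2.86 on the WT array and 5.24 on the KO-labelled array. Il6 read 0.66 and 2.86, Il7r, the interleukin-7 receptor, 2.11 and 4.23, and Ccr7, the chemokine receptor of cells that migrate to lymph nodes, 1.91 and 4.01. Flrt3, given above, was among the highest 8 too, as were the plasma cell genes Pou2af1 and Jchain, which are described with their list. Clec4d, a receptor of mycobacterial glycolipid, read 1.57 and 3.55. The lowest differences of that quartile were those of Ccl8 (5.52 and 2.73), a monocyte chemokine, Cfb (3.23 and 1.1), complement factor B, and Ccl12 (3.44 and 1.44), another monocyte chemokine. Next came 1110038B12Rik (4.84 and 3.27), Ifi47 (2.59 and 1.23), Phyhd1 (2.46 and 1.13), Pygl (3.61 and 2.27), glycogen phosphorylase of liver type, and Clec4a3 (3.48 and 2.14), a lectin receptor. Of these 16 bright genes only Flrt3 had a second probe above background on both arrays.

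Among the CD300 family itself, 8 of 12 listed members were matched on the array and all 8 were above background on both arrays. Cd300lf, an inhibitory relative of CD300a, read 3.04 on the WT array and 1.93 on the KO-labelled array, and all 3 of its probes were lower, the smallest difference being -0.64. Cd300c2 read 3.76 and 3.04, and Cd300lb, an activating member, 0.60 and 1.25. Cd300ld, Cd300ld4, Cd300lg and Cd300e differed by less than 0.4 in either direction. The family is a cluster of related genes, and whether these probes read across members was not tested.

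Inhibitory receptors that act through the same tail motif, and the phosphatases they recruit, were mostly lower on the KO-labelled array. 15 of 19 measured members were lower, 3 of them at least 2-fold, and 0 were 2-fold higher (median -0.39, against -0.07 for all genes, of which 6.62% were 2-fold lower). Of the 18 above background on both arrays, 2 were 2-fold lower. Pirb, a paired inhibitory receptor, read 2.97 and 1.92, and Ptpn6, the phosphatase SHP-1, read 3.74 and 2.79. Lilrb4a, an inhibitory leukocyte receptor, went the other way at 6.17 and 6.87, with probes at 0.40 and 0.70. Fc receptors, which bind antibody, had 9 of 11 measured members lower and none past 2-fold (median -0.46). Fcgr4 read 6.56 and 5.61, and Fcer1g, its signalling chain, 6.97 and 6.46. The inhibitory Fcgr2b read 3.68 and 2.95.

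Receptors and bridging proteins for phosphatidylserine showed no shared direction, with 10 of 22 measured members higher and 12 lower (median -0.06). Timd4, a phosphatidylserine receptor of resident macrophages, was higher by 1.77, as given with the macrophage markers. Havcr2, which encodes TIM-3, read 1.55 and 2.53. Xkr8, a scramblase that exposes the lipid, read -1.85 and -3.51, and Pros1, the bridging protein S, 2.23 and 1.38. The difference of the dim Xkr8 shrank to -0.41 with the choice of processing.

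Genes of dendritic cell maturation and migration leaned to the KO-labelled array: 23 of the 27 measured were higher, 7 of them at least 2-fold, and 0 at least 2-fold lower (median 0.50), where 5.61% of all genes were 2-fold higher. Beside Ccr7, these were Stat4 (-0.11 and 1.5), Cd83 (4.09 and 5.43), a surface marker of mature dendritic cells, Traf1 (2.86 and 4.12), Tnfsf9 (2.35 and 3.57), the ligand of 4-1BB, Cd274 (2.64 and 3.77), which encodes PD-L1, and Ccl22 (-0.88 and 0.16). The costimulator Cd86 read 3.02 and 3.92 and Cd40 1.03 and 1.53, both higher by less than 2-fold. Lower were Cacnb3 (-0.24 and -1.04), Pdcd1lg2 (-1.71 and -2.30), which encodes PD-L2, and the actin-bundling Fscn1 (0.24 and -0.23). In 5 genes of the list with several probes, all probes agreed in 3. Il15ra was among the exceptions, with probes at 0.24 and -0.70. On the GF arrays the median of the list was -0.87, with 0 of 28 measured members 2-fold higher and 11 lower.

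The NF-kappaB pathway carries signals from Toll-like and cytokine receptors to the nucleus, and many of its inhibitors are its own target genes. Of 23 measured members 20 were higher on the KO-labelled array, 4 of them at least 2-fold, against 5.61% of all genes, and 0 at least 2-fold lower (median 0.42). In all 7 genes with several probes every probe gave 1 direction. Among subunits, Rel read 0.72 on the WT array and 2.04 on the KO-labelled array, and Relb 2.91 and 3.60 with probes at 0.69 and 0.78. Nfkb1 had probes at 0.42 and 0.61. Rela, the p65 subunit, read 2.76 and 2.70, a difference within the 0.15 that spots of a probe spread. Among inhibitors, Nfkbib had 3 probes from 1.18 to 1.40, Nfkbia read 4.0 and 4.94, Nfkbie 3.39 and 4.24, and Tnfaip3, which encodes A20, 5.18 and 6.05. Zc3h12a, a ribonuclease that degrades cytokine messages, read 1.87 and 3.06. Only Socs3 (4.38 and 4.06), Chuk (3.96 and 3.69) and Rela were lower. The median on the GF arrays was -0.57.

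Cytokines and chemokines split in both directions. Of 21 measured inflammatory cytokines 3 were higher by 2-fold or more and 4 lower (median 0.03). Of 28 chemokines 4 were higher and 7 lower (median -0.12), where 5.61% of all genes were higher by as much and 6.62% lower. Of the 19 inflammatory cytokines above background on both arrays, 3 were higher and 2 lower, with a median of 0.26. Higher beside Il6 and Il10 was Il1a (0.65 on the WT array and 2.08 on the KO-labelled array). The chemokines Cxcl1 (6.03 and 7.81), Cxcl2 (4.74 and 6.04) and Cxcl3 (-0.29 and 1.86), which attract neutrophils through CXCR2, were all higher. Lower beside Csf1 was Ltb (-0.19 and -2.04), lymphotoxin beta. The eotaxins Ccl24 (0.56 and -0.64) and Ccl11 (-0.49 and -1.33) and the monocyte chemokine Ccl7 (3.78 and 2.57) were lower, as was Cxcl13 (0.22 and -2.46), which attracts B cells. Cxcl10, like Cxcl9 a ligand of CXCR3, went the other way from Cxcl9, at 3.10 and 3.84. Cxcr3 itself read 0.14 and -1.40.

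Among sensors of microbes, 4 of 32 Toll-like receptors, other sensors and adaptors were at least 2-fold higher and 1 lower (median -0.10), beside 5.61% and 6.62% of all genes. Beside Nlrp3, Nod2, a sensor of bacterial cell wall, read 0.36 on the WT array and 1.66 on the KO-labelled array, and Tlr5, the flagellin receptor, -3.73 and -2.51, near background; after normexp Tlr5 differed by 0.40 and was no longer past 2-fold. Nod1 read 1.70 and 0.39, and Tlr4, the receptor of lipopolysaccharide, 0.89 and 0.14. The related Nod1 and Nod2 thus differed in opposite directions by more than 2-fold each, each on 1 probe. C-type lectins had 3 of 23 members at least 2-fold higher and 3 lower (median 0.04), with Clec4e, the Mincle receptor, at -0.04 and 1.69 and its neighbour in function Clec4d given above.

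Interferon-inducible GTPases, which attack vacuoles that hold microbes, were the function list with the lowest median, -0.82. Of 17 measured members 8 were at least 2-fold lower on the KO-labelled array, 15 were lower at all and 0 were 2-fold higher, beside 6.62% of all genes 2-fold lower. Of the 16 above background on both arrays 7 were 2-fold lower. Members beside Gbp6, Irgm1, Igtp and Ifi47 were Tgtp2 (1.96 on the WT array and 0.42 on the KO-labelled array; probes -1.55 and -0.63), Gbp2 (1.93 and 0.61) and Irgm2 (1.36 and 0.34). Tgtp1 was above background on the WT array only, at least 4.29-fold lower on the KO-labelled array; Tgtp1 and Tgtp2 are near-identical copies, and whether their probes tell them apart was not tested. Gbp5 (-1.24 and -0.91) and Iigp1 (3.11 and 3.24) were the 2 members higher on the KO-labelled array by their brightest probe. The other probe of Iigp1 went the opposite way: it was above background on the WT array only and at least 6.92-fold lower on the KO-labelled one, so the direction of Iigp1 turns with the choice of probe. In 4 members with several probes above background on both arrays every such probe was lower. The GF median was -0.70.

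Other interferon-stimulated genes differed less, with 5 of 48 at least 2-fold lower, 38 lower at all and 0 at least 2-fold higher (median -0.31). The share at least 2-fold lower was 10.4%, beside 6.62% of all genes. All 5 were among the 47 members above background on both arrays, beside 373 of 13343 such genes lower by as much. Lowest were Cmpk2, a mitochondrial nucleotide kinase (0.27 and -1.09; probes -1.36 and -0.36), Oas2, a sensor of double-stranded RNA (-0.31 and -1.47), and Stat2 (2.35 and 1.23), the transcription factor of type I interferon signalling. Oasl1 (1.52 and 2.44) was highest. Well-known members such as Isg15 (3.87 and 3.66) and Irf7 (0.47 and 0.38) differed by -0.21 and -0.09. Only 11 of the 16 members with several probes had all probes in 1 direction. Ifih1, for instance, had probes at 0.03 and 1.54. Ifnb1, interferon beta, read 0.55 on the WT array and 1.61 on the KO-labelled array, and Ifnar1, a chain of its receptor, had 3 probes from 0.47 to 1.01.

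RefSeq promoter windows (GRCm38.p6, 250 bases before to 50 after the gene's start) were searched on both strands for the core of the interferon response element, GAAANNGAAA. Of the GTPases, 10 of 11 with a window held it (90.9%), of the interferon-stimulated genes 18 of 36 (50%), and of all 27025 genes with a window 3.99%. Among interferon-stimulated genes the median difference was -0.19 for the 18 with a match and -0.33 for the 18 without. Of the lowest 2 members of each list among genes above background on both arrays, the window of Tgtp2 held a match, that of Cmpk2 held none, and Oas2 and Gbp6 were not in the table. The window of Tgtp2 (chr11:49064163-49064462, minus strand) is shown 5′ to 3′, since this gene is among the lowest, with the matched letters, which start at position -70 relative to the gene's start, in capitals. A match describes these letters and is no evidence of binding.
Tgtp2: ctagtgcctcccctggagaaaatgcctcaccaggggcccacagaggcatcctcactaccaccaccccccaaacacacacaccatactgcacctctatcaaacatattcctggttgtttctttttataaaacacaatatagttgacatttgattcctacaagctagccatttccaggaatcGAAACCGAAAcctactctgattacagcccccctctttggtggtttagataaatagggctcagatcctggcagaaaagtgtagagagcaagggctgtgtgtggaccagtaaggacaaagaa

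Antigen presentation differed little for class II and more for class I. Of 18 class II genes none was past 2-fold and the median was 0.04, a sign that turned with the scaling. H2-Ob, an inhibitor of peptide loading, was highest (1.90 on the WT array and 2.66 on the KO-labelled array; probes 0.43 and 0.75). Of 19 class I genes 16 were lower and none past 2-fold (median -0.25). Nlrc5, the activator of class I genes, read 1.16 and 0.47, with probes at -0.69 and -1.30, and H2-M3, a class I molecule for formylated peptides, 3.20 and 2.50. Lysosomal genes had 23 of 29 measured members lower by mostly small amounts (median -0.23), such as Ctsc (5.97 and 5.30) and Ctsd (4.62 and 4.16; probes -0.46 and -0.42), both proteases. Gpnmb, a glycoprotein of lipid-laden macrophages, was the only one at least 2-fold higher, at -0.13 and 1.07.

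Complement genes were lower as a list, with 16 of 19 measured members lower, 4 of them at least 2-fold, against 6.62% of all genes, and 0 at least 2-fold higher (median -0.46). Beside Cfb, these were C4b (1.0 on the WT array and -0.99 on the KO-labelled array), C2 (-1.5 and -3.22) and C6 (-1.63 and -3.13). The difference of the dim C2 shrank to -0.69 with the choice of processing. Cfb, C4b and C2 make the C3-cleaving enzymes of the alternative and classical pathways. The fibroblast-expressed C1s1 (-0.41 and -1.35) and Serping1 (2.20 and 1.34; probes -1.01 and -0.86) were lower as well, while the macrophage subunits C1qa, C1qb and C1qc differed by -0.20 to -0.46. In 4 genes with several probes every probe was lower. Markers of fibroblasts and smooth muscle were lower too (18 of 22, median -0.67), and their part in it was not tested.

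ATF4, the transcription factor of the integrated stress response, induces genes of amino acid supply. A subset of its targets was higher, since on the KO-labelled array 7 of the 38 that were measured exceeded WT by 2-fold or more and 0 fell short by as much, but the median was 0.11. Of all genes 5.61% were higher by as much. Chac1, which degrades glutathione, read -1.77 on the WT array and 0.76 on the KO-labelled array. Slc7a11, the cystine importer, read -2.51 and -0.56, Asns, asparagine synthetase, -1.82 and -0.27, and Trib3, a pseudokinase, -0.60 and 0.77. After normexp the differences of the dim Slc7a11 and Asns were 0.90 and 0.83 and no longer past 2-fold, while that of Chac1 was 1.66. Mthfd2 (1.24 and 2.37) and the amino acid transporter Slc7a5 (0.87 and 1.87; probes 1.0 and 1.30) followed. Atf3 (4.94 and 4.89), Ddit4 (5.66 and 5.60) and the aminoacyl-tRNA synthetases Sars (1.79 and 1.85) and Lars (1.90 and 1.90) differed by 0.06 or less in size. The core of the ATF4 response element, TGATGNAA, was found on either strand in 12 of 33 members with a window (36.4%), against 4.51% of all genes. The measured members with a match had a median of 0.18 and those without one 0.16. The windows of Chac1 (chr2:119350992-119351291, plus strand) and Slc7a11 (chr3:50443564-50443863, minus strand), the highest 2 members, are shown for that reason, 5′ to 3′ with matches in capitals; Chac1 has 1 and Slc7a11 has 2, on opposite strands.
Chac1: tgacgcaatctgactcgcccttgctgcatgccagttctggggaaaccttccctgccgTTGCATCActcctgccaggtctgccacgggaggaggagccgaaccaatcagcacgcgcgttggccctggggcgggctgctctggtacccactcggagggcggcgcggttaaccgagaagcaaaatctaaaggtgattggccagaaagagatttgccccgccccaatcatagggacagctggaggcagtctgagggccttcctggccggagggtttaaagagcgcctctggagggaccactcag
Slc7a11: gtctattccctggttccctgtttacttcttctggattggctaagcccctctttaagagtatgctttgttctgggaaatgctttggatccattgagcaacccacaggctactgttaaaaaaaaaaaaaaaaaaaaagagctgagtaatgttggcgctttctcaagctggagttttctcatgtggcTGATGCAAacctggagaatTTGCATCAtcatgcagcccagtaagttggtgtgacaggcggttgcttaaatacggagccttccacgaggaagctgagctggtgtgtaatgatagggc

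Chaperones and degradation factors of the endoplasmic reticulum, the targets of XBP1 and ATF6, were higher as a list but by small amounts. Of 28 measured members 26 were higher and only Derl3 at least 2-fold (median 0.52). Herpud1 read 4.46 on the WT array and 5.39 on the KO-labelled array, Manf 4.21 and 5.05, Xbp1 itself 4.60 and 5.18, and the chaperone Hspa5, known as BiP, 5.60 and 6.00. Derl3 read -1.77 and 0.38 and stands in the plasma cell list too. Without it the median of the other 27 was 0.50. Secretory plasma cells depend on these genes, and the B cell and plasma cell markers had the same direction. Of 17 such markers 8 were at least 2-fold higher, where 5.61% of all genes were. The part of these markers in the difference was not tested. Heat-shock proteins of the cytosol did not share the direction (median 0.03, none of 22 past 2-fold).

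Oxidative stress genes had 19 of 24 measured members higher, 4 of them at least 2-fold, Slc7a11 among these, and 0 at least 2-fold lower (median 0.19), beside 5.61% of all genes higher, and in all 6 genes with several probes every probe gave 1 direction. Srxn1, sulfiredoxin, read 3.92 on the WT array and 5.57 on the KO-labelled array, Txnrd1, thioredoxin reductase, 4.90 and 6.49, Mt2, a metallothionein, 3.64 and 5.01, and Prdx1, a peroxiredoxin, 3.83 and 4.82 (probes 0.99 and 1.11). Nfe2l2, the NRF2 factor that drives several of them, read 3.58 and 4.41, and Keap1, its inhibitor, 1.92 and 1.17. Mt1 (5.66 and 5.68), the neighbour of Mt2 in the genome, and Cat (6.19 and 6.25), catalase, differed by 0.06 or less in size.

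Genes of the aryl hydrocarbon receptor, a sensor of dietary and microbial ligands, had 6 of 7 measured members higher (median 0.84). Ahr read 2.12 on the WT array and 3.21 on the KO-labelled array, with probes at 1.09 and 0.89. Tiparp, a feedback inhibitor, read 4.39 and 5.27, with probes at 0.88 and 0.81. Cholesterol synthesis genes had 20 of 25 members higher and 0 at least 2-fold higher (median 0.40). Insig1 (1.08 and 2.0), a sterol-sensing regulator of the pathway, was among the highest, and Fdps (1.13 and 0.24) the lowest above background on both arrays. Lists of LXR targets (median -0.07), glycolysis (0.03) and the circadian clock (0.07) showed no shared direction.

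Eicosanoid genes differed in a few members only, with 3 of 25 at least 2-fold higher and 2 lower (median 0.01). Of all measured genes 5.61% were higher by as much and 6.62% lower. Beside Ptgs2, Cysltr2, a leukotriene receptor, was higher (-2.94 on the WT array and -0.85 on the KO-labelled array). With the choice of processing the difference of Cysltr2 shrank to 0.915. The lipoxygenases Alox5 (0.90 and -0.27) and Alox15 (1.91 and 0.85) were lower. Ptges, a prostaglandin E synthase, read 6.01 and 6.07, and its 2 probes differed by 0.05 and 0.41. Genes of retinoic acid synthesis and of regulatory T cell induction had a median of 0.02. Of 34 measured members 8 were higher by 2-fold or more and 5 lower, beside the same shares of all genes. Of the 28 above background on both arrays 6 were higher and 1, Aldh1a1, lower; the remaining lower calls passed the filter through the WT array alone. Vdr, the vitamin D receptor, read -1.92 and -0.37, and Aldh1a1, a retinoic acid-forming enzyme, -0.67 and -1.97. With the choice of processing these differences shrank to as little as 0.80 for Vdr and -0.79 for Aldh1a1. Aldh1a2, the form typical of gut dendritic cells, read -0.09 and -0.10. Areg, the epithelial growth factor amphiregulin, read -1.40 and 1.20.

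**Figure D4:**
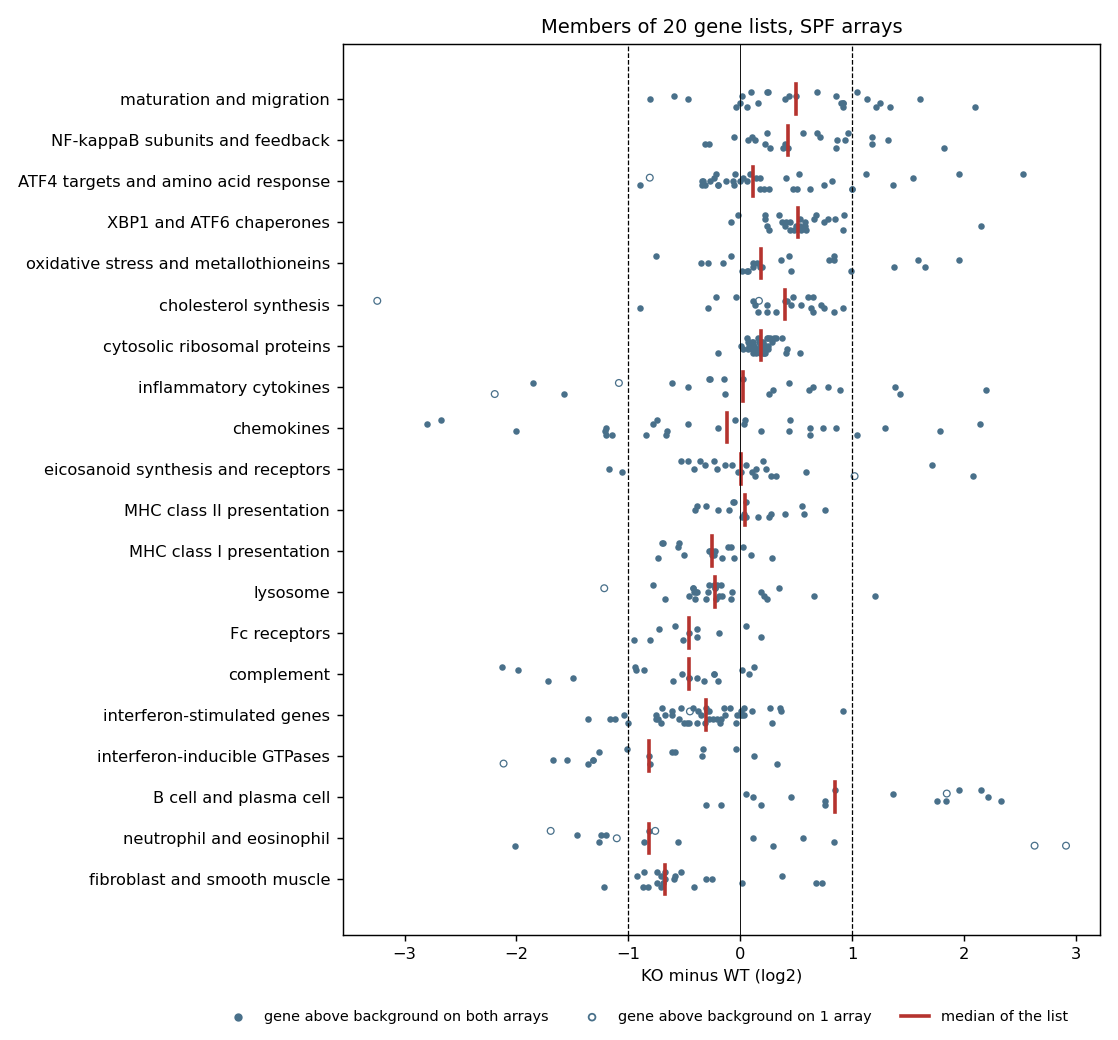
KO minus WT (log2, x axis) of the measured members of 20 gene lists (rows); filled points are genes above background on both SPF arrays, open points genes above on 1, red bars are list medians and dashed lines mark 2-fold. The medians run from -0.82 for the interferon-inducible GTPases to 0.84 for B cell and plasma cell markers, and points of most lists straddle 0.

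Housekeeping groups show how narrow a list can be. Of 44 cytosolic ribosomal protein genes 43 were higher and none past 2-fold, with a median of 0.19 (0.06 to 0.19 over the scalings), beside a spread of 0.15 between spots. Oxidative phosphorylation genes had a median of -0.13 and none of 39 past 2-fold. Cell cycle genes had 29 of 43 measured members higher (median 0.16); beside Mki67 only Cenpa (1.36 and 2.41) was at least 2-fold higher, and Ccna2, cyclin A, was lower (1.08 and 0.13).

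Markers of other cell types differed between the arrays. B cell and plasma cell markers included 8 of 17 measured members that were higher by 2-fold or more on the KO-labelled array, where 5.61% of all genes were. Lower by as much were 0 (median 0.84, or 0.76 with Ms4a1 at its bound). Among the 16 above background on both arrays 7 were 2-fold higher, beside 481 of 13343 such genes. The median level of the 17 was -0.16 on the WT array and 1.09 on the KO-labelled array. Jchain, the joining chain of secreted antibody, read 3.99 and 6.20, and Pou2af1, a coactivator of B cells, 1.95 and 4.28. Cd79b, Cr2, Bank1 and Pax5, markers of mature B cells, differed by 0.12, 0.06, -0.17 and -0.31. Of the 8 higher members Jchain, Derl3, Mzb1, Sdc1 and Tnfrsf17 are known for plasma cells, and Cd79a and Ms4a1 for B cells. Innate lymphoid and natural killer cell markers had 4 of 14 at least 2-fold higher (median 0.62, but 0.22 after normexp), beside 5.61% of all genes, among them Areg and Il7r, and 0.56 over the 8 that stand in no other list.

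Granulocyte and mast cell markers were mostly lower. Of 17 measured neutrophil and eosinophil markers 7 were at least 2-fold lower and 2 higher (median -0.81; -0.56 with bounds; -0.34 after normexp). Of all measured genes 6.62% were lower by as much and 5.61% higher. Among the 12 markers above background on both arrays 5 were lower and 0 higher, beside 373 lower and 481 higher of 13343 such genes. S100a9, an abundant neutrophil protein, read 1.36 on the WT array and -0.65 on the KO-labelled array, and Mmp8 -1.95 and -3.40. The difference of the dim Mmp8 shrank to -0.35 with the choice of processing. Epx and Mpo, the granule peroxidases, went the other way: both passed background on the KO-labelled array alone, at least 1.96-fold and 1.60-fold higher. Of 6 measured mast cell and basophil markers 4 were at least 2-fold lower (median -1.75; -1.43 with bounds; -0.5 after normexp), beside 6.62% of all genes, with Gata1 at -0.20 and -3.08. Only 4 were above background on both arrays, 2 of them 2-fold lower (median -0.89). The 2 probes of Tpsb2, a mast cell tryptase, disagreed, at -1.34 and 0.18. Fibroblast and smooth muscle markers had 18 of 22 members lower and 1 of them at least 2-fold (median -0.67), among them Col3a1, Pdgfra and Acta2 at -0.82, -0.74 and -0.71.

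Epithelial markers split by gene. Of 26 measured members 8 were higher by 2-fold or more and 1 lower (median 0.38, GF 0.80). Of all measured genes 5.61% were higher by as much and 6.62% lower. Of the epithelial markers, 20 were above background on the WT and 25 on the KO-labelled array. Of the 19 above on both, 3 were higher and 1 lower, with a median of 0.23, and the median was -0.17 among those in the brighter 50% of genes; 5 of the 8 higher calls passed through the KO-labelled array alone. Beside Lgals4, Krt19, a keratin, read -2.45 and -0.16. Clca1, a goblet cell protein, passed background on the KO-labelled array alone and was at least 30.0-fold higher there. The same held for Chgb and Chga, granins of enteroendocrine cells, at least 15.7-fold and 6.03-fold higher. Muc2, the goblet cell mucin, went the other way, at -0.44 and -1.26, as did Car1 (-1.14 and -2.55), an enzyme of surface colonocytes. Epcam, the general epithelial marker, read -0.77 and -0.42. The part of these other cell types in the differences of the gene lists was not tested.

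The GF pair gave other values for many of these genes. The list medians of maturation, NF-kappaB, XBP1 and ATF6 chaperones, ribosomal proteins and ATF4 targets were positive on the SPF arrays and negative on the GF arrays, at -0.87, -0.57, -0.69, -0.75 and -0.52, while the median of all genes measured there was -0.20. The GTPases, complement, Fc receptors, lysosomal genes and class I genes had negative medians in both housings. Most lists had negative GF medians, among them heat-shock proteins at -1.21, inflammatory cytokines at -1.06 and class II genes at -0.78. Few lists were positive there, such as epithelium at 0.80. A negative GF median is therefore not particular to the lists named here. Il10, for instance, was 1.38 higher on the KO-labelled array under SPF and read -1.74 under GF housing, and Gbp6 read -1.68 and -1.53. Both GF arrays are labelled male, yet Xist was above background on the KO-labelled one at 3.62 and not on the WT one, while the Y-linked Ddx3y, Uty, Kdm5d and Eif2s3y were above background on both. That Xist signal goes against the sex label, and no GF difference can be given without this array. Housing cannot be told apart from slide, scan and labelled sex, and the difference between the pairs was not tested.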

How the data were processed

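Per the file headers, each array was scanned and quantified with Agilent Feature Extraction 10.10.1.1 (protocol GE1_1010_Sep10, design build mm9), and the deposited values used here are spot intensity after the software's own processing. Per the labels' protocols, RNA was amplified as whole-transcriptome cDNA and labelled with Cy3. Of 59305 non-control spots, outlier-flagged ones (184 on the WT and 215 on the KO-labelled array) were left out, spots of a probe were averaged after log2, which left out 84 probes, and the array's 75th percentile was subtracted. RefSeq accessions named 27191 of 55597 probes; the brightest probe over all arrays represented its gene. A gene above background on 1 array only has a bound: its value against the dim array's floor (-4.14 on the WT and -3.86 on the KO-labelled array) or its own dim value, whichever is higher. List counts and medians use measured values for such genes too.

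Named genes followed a rule. Among genes whose probes all shared a direction, it took the first 15 in each direction when ranked by their smallest probe difference. It also took the 8 highest and 8 lowest of the brightest quartile and the 6 largest bounds in each direction among genes with several probes. Up to 3 extremes per list and fixed markers completed it. Other list members were chosen after their values were seen. The members and the 55 lists (1167 of 1202 symbols matched, 79 genes in more than 1 list) were chosen with earlier results of these data known. The bounds under that rule ran from 1.78-fold to 3.31-fold higher (Lrrc4b and Oosp1) and from 2.12-fold to 4.24-fold lower (Gm3002 and Spin2-ps1).

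A table with all arrays, also deposited as intensity, equals the processed signal times 8.30 (WT) and 8.24 (KO-labelled), with column medians of 237.2 and 216.3; it is linear and not gene-centred, and the rule behind its factors is unknown. It served as an alternative. Others were quantile and cyclic loess scaling, normexp (limma 3.58.1, R 4.3.3, offset 50), 2 filters, the median over probes and keeping flagged spots. Mean signals are not a column of the scanner files used here, so normexp used median signals. Calculations were tested on simulated data. Python 3.11.15, pandas 2.3.3 and matplotlib 3.10.9 were used. Having 1 array a group limits the precision of every value.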

Additional observations from a re-analysis of the deposited data

Results flagged for a closer look

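Some results had opposite directions under SPF and GF housing. These differences between housings were not tested, and each rests on 1 array a group. The XBP1 and ATF6 chaperones had a list median of 0.52 under SPF and -0.69 under GF housing. Ccr7, the lymph node homing receptor, differed by 2.10 and -1.91. Ptgs2 differed by 1.72 and -1.59, Il1r2, the decoy receptor of interleukin-1, by 1.93 and -1.59, and Apold1 by 2.16 and -1.52.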

How the results depend on the processing

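Of 153 named genes past 2-fold 0 changed direction under the 6 alternatives that recompute values. The 2 filters only drop genes, leaving 141 and 84 of them. Most of the 153 were chosen as extremes. The deposited table shifts every difference by the same small amount (median of all genes -0.07 to -0.15), so no turn was possible there. Past 2-fold stayed 149 under quantile scaling, 148 under cyclic loess, 145 in the deposited table, 147 with the median over probes and 83 after normexp. Iigp1, not past 2-fold, turned from 0.12 to -1.65 with the median over probes. Normexp left 176 genes higher and 92 lower, the filter on both arrays 481 and 373, and the brighter 50% of genes 201 and 91; the filters test fewer genes by construction, and for normexp the cause was not tested. All 55 list medians stayed within the spread between spots under quantile, cyclic loess and the deposited table. For the deposited table this follows from its constant shift and tests nothing. Medians near 0 turned sign for 8, 7 and 12 lists. After normexp the median was 0.17 for EGF ligands and receptors, -0.30 for antimicrobial proteins, -0.34 for neutrophils and eosinophils, -0.5 for mast cells, 0.62 for B and plasma cells, 0.22 for innate lymphoid cells, 0.22 for epithelium, -0.44 for fibroblasts and -0.047 for olfactory receptors. Above background on both arrays it was 0.26 for inflammatory cytokines, 0.16 for interferons and receptors, -0.89 for mast cells and 0.23 for epithelium. In the brighter 50% it was 0.69 for maturation, 0.62 for inflammatory cytokines, 0.40 for chemokine receptors, 0.65 for interferons and receptors, 0.26 for regulatory T cell promotion, 0.17 for the BCL2 family, 0.47 for the clock, -0.76 for antimicrobial proteins, 0.29 for plasmacytoid dendritic cells, -1.25 for neutrophils and eosinophils, 1.1 for B and plasma cells, 1.51 for T cells, -0.17 for epithelium and -0.56 for endothelium. With the median over probes it was 0.74 for maturation, -1.01 for the GTPases, 0.29 for plasmacytoid dendritic cells and -1.37 for mast cells. The lists without shared genes (chaperones 0.50, innate lymphoid cells 0.56) were chosen after seeing the data. No paired analysis was possible because each group has 1 array and the labels give no replicate numbers; for the same reason none could be left out. Probes near background are the least reliable, and calls there were the most frequent.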
